A study of Mus musculus with 3 samples.

Results

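The genes described here are 49 mouse genes of interferon signaling. They are the receptors of type I and type II interferon, the Stat and Irf transcription factors of the pathway, its negative regulators, and genes that interferons switch on, without the genes of antigen presentation. They were chosen by symbol, and every probe whose accession the RefSeq table of GRCm38.p6 pairs with one of the symbols was used. Of the 21154 symbols that the array carries by this table, 46 belong to the 49 genes, with 60 probes. All 46 had a probe well above background and were tested among 21743 genes and transcripts, so the filter on dim probes removed none of them. The table pairs no probe of the array with Mx1, Mx2 or Rnf213, and these were not analysed here. Of the 60 probes, 0 were saturated in a channel.

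Type I interferons bind a receptor made of Ifnar1 and Ifnar2, whose kinases Jak1 and Tyk2 phosphorylate Stat2. Together with Irf9 it acts in the nucleus on the interferon-stimulated response element (ISRE) of antiviral genes, while interferon gamma acts through Ifngr1, Ifngr2, Jak1 and Jak2 on the gamma-activated site (GAS). RANK, the receptor of RANKL (RL), signals through NF-kB, a family of factors that also acts on some interferon genes, and in the mammary gland it relays the action of progesterone.

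The arrays measured RNA of primary tumor cultures from 3 mice with the mmtv-Pymt transgene, in which the MMTV promoter drives the PyMT oncogene in mammary epithelium. The tumors are named 811a, 812a and 815a, and each gave 1 culture with RANKL for 24 h and 1 untreated control culture, both in medium with serum, cholera toxin, insulin and EGF. The labels give the dose as 1000 ug/ml, which is not the dose of the study's methods, and they give no age or strain. Per the methods, cells were plated on growth factor-reduced matrigel and RL was added 24 h later, and the comparison asked which genes RANK activation changes. Both cultures of a tumor were hybridized to 1 Agilent mouse array in different dyes, with RL in Cy3 for 811a and 815a and in Cy5 for 812a. The methods mention dye swaps for each sample, but the labels give 1 array and 1 dye order per tumor, so in these data what is particular to 812a cannot be told apart from what is particular to its dye order. The 3 arrays shared 1 slide and 1 scan. In each channel, 54.6% to 56.2% of probes passed as well above background. A ratio is given as log2 of RL over control, and differences were tested with limma across all genes and transcripts, with Benjamini-Hochberg adjustment and a threshold of 0.05. All p-values rest on 3 tumors with a single culture per condition, and the number of arrays limits the precision.

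Defining markers of the cultures were checked first. All 10 epithelial markers were well above background by the filter, with Krt18 the brightest. The 8 fibroblast markers and 10 of 11 myeloid markers also passed, and Ly6g had no probe. Of 10 pan-leukocyte and lymphoid markers 5 passed, with Siglech the brightest. Cd3d, Cd8a, Ms4a1 and Ncr1 were among the 5 that did not pass, and of 5 endothelial markers Cdh5, Tek and Emcn did not. The cultures thus held RNA of fibroblast and myeloid marker genes beside epithelial RNA, and signal of some pan-leukocyte, lymphoid and endothelial markers. In bulk RNA, fewer cells of a type and less RNA per cell cannot be told apart.

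The promoters of the members were searched for motifs in the RefSeq windows of GRCm38.p6, which run from 250 bases before to 50 bases after a gene's start. The motifs were the ISRE as TTTC and TTTC with any 2 bases between them, the GAS as TTCNNNGAA and the NF-kB consensus, each on both strands. Among all 32851 windows, 3.44% held the ISRE letters, 8.3% the GAS letters and 8.46% the NF-kB consensus. The table held 45 windows for 39 of the 49 members, and no entry for Parp9, Parp14, Usp18, Zbp1, Oas2, Dhx58, Ifi27, Iigp1, Mx1 and Mx2. Of the 45 windows, 19 (42.2%) held the ISRE, 11 (24.4%) the GAS and 8 (17.8%) the NF-kB consensus. By role, the ISRE was in 0 of 4 windows of receptors, 1 of 10 of transcription factors, 1 of 1 of negative regulators (Socs1), 3 of 4 of sensors, 2 of 4 of OAS genes, 5 of 12 of other effectors, 3 of 5 of ligase genes and 4 of 5 of GTPases. Among 11 windows of the NF-kB response genes given here as a comparison, 0 held the ISRE and 7 (63.6%) the NF-kB consensus. A match describes letters only, and 4 windows are printed beside their genes: those of Ifngr2 and Irf1, which are among the members with the highest RL ratios, and those of Oas1a and Bst2, whose levels differed over 2-fold between tumors.

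By limma, 0 of the 46 members passed the adjusted p of 0.05 in either direction, where 0.00460% of all genes and transcripts (1 of 21743) were raised and 0.0230% (5) lowered. At an unadjusted p under 0.05, 6 members were above 0 and 1 below, where 3.53% and 3.57% of all were. These were 15 and 2 without 812a (8.57% and 11% of all genes), 3 and 0 without 811a (1.84% and 2.07%) and 4 and 1 without 815a (1.52% and 1.89%). They were 3 and 0 with the scanner's processed signals (3.93% and 3.71%), 1 and 0 without pairing by tumor (0.202% and 0.092%), and 0 and 0 with each array centered on its median (0.0322% and 0.0736%). The rank product, the test named in the study's methods, called 0 members at a proportion of false positives under 0.05, where it called 0.170% of all as raised and 0.235% as lowered. With a term for the dye, which leaves 1 residual degree of freedom, limma called 3 members as raised and 0 as lowered, where 0.547% of all were raised and 0.713% lowered. These 3 were Ifngr1, Irf1 and Parp14. Without 812a, limma called 5 members as raised and 0 as lowered, where 2.54% of all were raised and 4.10% lowered, and these 5 were the same 3 with Ifngr2 and Parp9. The arrays of 811a and 815a both have RL in Cy3, so without 812a the effects of RL and of the dye cannot be told apart.

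The median log2 ratio of the 46 members was 0.06, and over all genes tested it was −0.0016; with each array centered on its median in place of loess, these were −0.12 and −0.11, a difference of −0.0083. Within the tumors, the members' median was 0.13 in 811a, −0.0070 in 812a and 0.09 in 815a. The median of the members' mean ratios was 0.041 without 811a, 0.096 without 812a and 0.057 without 815a. Means were above 0 for 35 members and below 0 for 11, as they were for 10718 and 11025 of all 21743, and lay between −0.21 for Samhd1 and 0.42 for Parp14. In 811a, 812a and 815a, 33, 22 and 37 members were above 0, as were 10464, 11382 and 10575 of all. The 95% interval of the mean lay within 2-fold for all 46 members and within 1.5-fold for 44 of them. It lay within 2-fold for 21720 and within 1.5-fold for 21448 of all 21743. The median width to each side was 0.18 on the log2 scale for the members and 0.17 for all. In all 3 tumors, 13 members were above 0 and 2 below, where 14.2% and 13.5% of 21721 genes with a value on every array were. With each array centered on its median in place of loess, 0 members were above 0 in all tumors and 2 below. That 0 covers every member described below as above 0 in each tumor. With loess, a further 16 members were above 0 in 811a and 815a and below 0 in 812a, which 15.4% of all were, and 3 had the opposite pattern, which 19.2% of all had. Across the 46 members, which are not independent replicates, Pearson's r of the log2 ratios was 0.54 between 811a and 815a, 0.32 between 811a and 812a and −0.12 between 812a and 815a. Across all genes these were 0.45, −0.11 and −0.11, and arrays with the same dye order share the dye's effect on each probe.

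**Figure D1:**
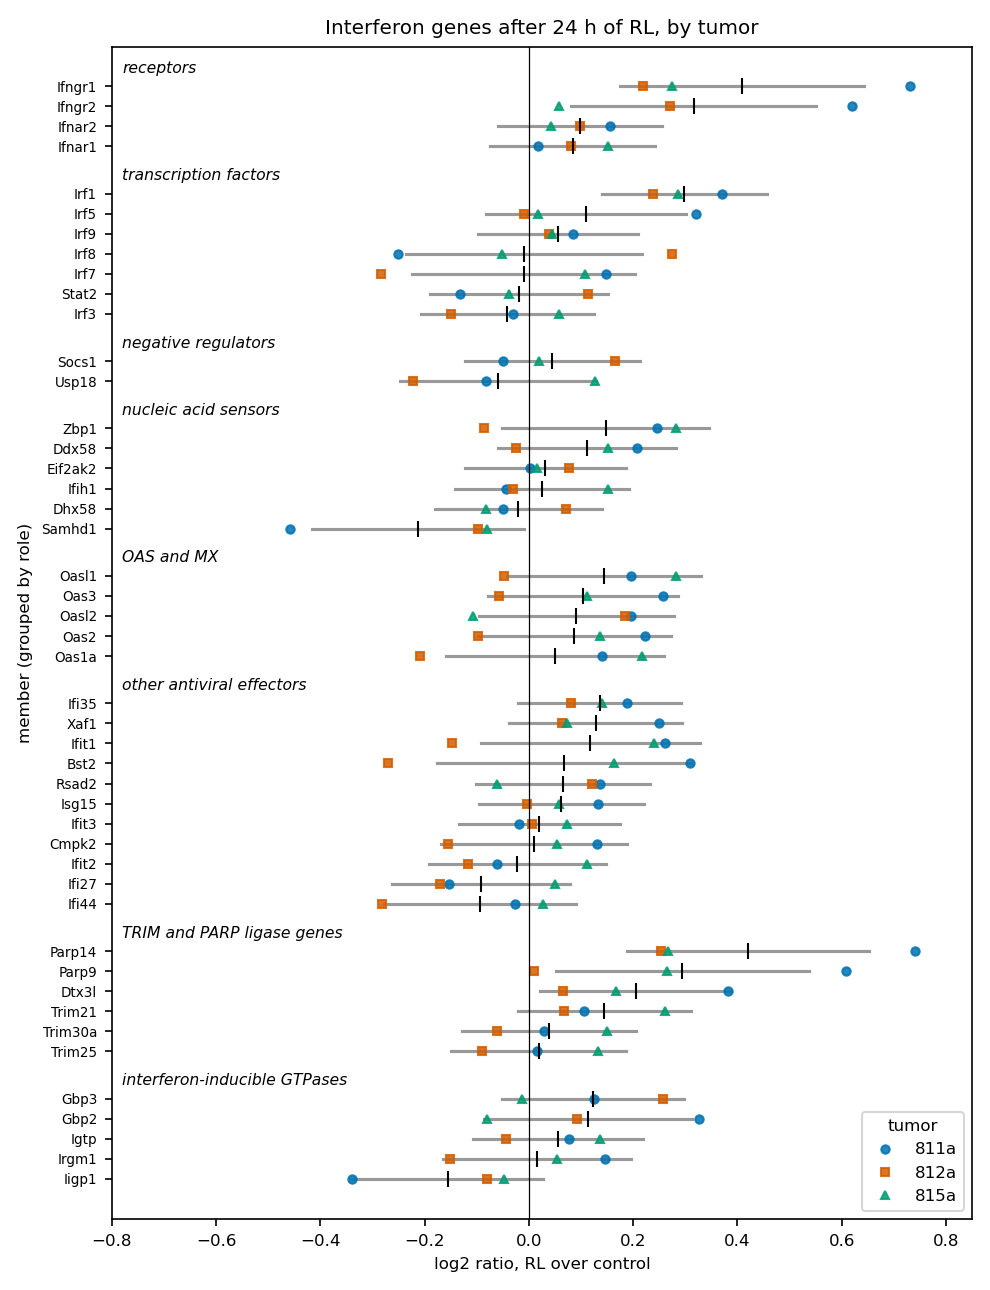
Log2 ratio of RL over control (horizontal axis) for the 46 members tested, grouped by role (vertical axis); symbols are the 3 tumors, black ticks the mean and gray lines its 95% interval from limma. Ifngr1, Ifngr2, Irf1, Parp14, Parp9 and Dtx3l have intervals above 0 and Samhd1 one below 0, before adjustment for the number of genes.

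Among the receptors, Ifngr1, the chain that binds interferon gamma, had log2 ratios of 0.73 in 811a, 0.22 in 812a and 0.28 in 815a. All 3 were above 0, and 811a stood apart from the others. The mean was 0.41 (SE 0.10, limma adjusted p 0.391), the 54th highest of all genes tested, with a 95% interval from 0.18 to 0.64. Its adjusted p was 0.0157 with the dye term and 0.000663 without 812a, and over all alternatives it ran from 0.000663 to 1.00. Ifngr2, the chain that completes the same receptor, had log2 ratios of 0.62, 0.27 and 0.06 in 811a, 812a and 815a. These were again above 0 in each tumor and highest in 811a, and the mean was 0.32 (SE 0.10, limma adjusted p 0.556). Without 812a its adjusted p was 0.0343, in a range over the alternatives from 0.0343 to 1.00. Without 811a the mean was 0.25 for Ifngr1 and 0.16 for Ifngr2, and with each array centered on its median it was 0.26 and 0.16. The chains of the type I receptor, Ifnar1 and Ifnar2, had mean log2 ratios of 0.08 and 0.10 and were above 0 in all 3 tumors. The mean of Ifngr1 and Ifngr2 was 0.68 in 811a, 0.25 in 812a and 0.17 in 815a, and that of Ifnar1 and Ifnar2 was 0.09, 0.09 and 0.10. The type II pair was higher than the type I pair in each tumor, by 0.59, 0.16 and 0.07 on the log2 scale. The mean difference of 0.27 (SD 0.28, n = 3 tumors) gave a two-sided exact sign-flip permutation p of 0.25, the smallest that this test can give with 3 tumors, so the test could not pass the threshold. The promoter window of Ifngr2 (chr16:91546809-91547108, plus strand) holds the NF-kB consensus on the reverse strand, in capitals, beginning 75 bases before the start, and neither the ISRE nor the GAS letters. The window of Ifngr1 holds none of the 3 motifs, and those of Ifnar1 and Ifnar2 each hold the GAS letters.

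Ifngr2: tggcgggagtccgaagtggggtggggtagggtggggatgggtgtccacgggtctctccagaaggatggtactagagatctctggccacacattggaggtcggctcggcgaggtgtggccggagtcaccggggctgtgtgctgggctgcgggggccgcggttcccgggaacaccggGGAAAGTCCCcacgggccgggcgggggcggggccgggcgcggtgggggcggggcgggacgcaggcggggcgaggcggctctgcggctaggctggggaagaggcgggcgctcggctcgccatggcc

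Of the 7 transcription factors, Irf1, which is switched on by both interferons and by NF-kB, had the lowest adjusted p of all members. Its log2 ratios were 0.37, 0.24 and 0.29 in 811a, 812a and 815a, so the tumors lay close together. The mean was 0.30 (SE 0.07, limma adjusted p 0.341), with a 95% interval from 0.14 to 0.46. Its adjusted p was 0.0462 with the dye term and 0.0151 without 812a, in a range from 0.0151 to 1.00. A second probe of Irf1 was not well above background in any culture. Irf7, the factor that amplifies type I interferon production, had log2 ratios of 0.15, −0.28 and 0.11, and Irf8, a factor of myeloid cells, had −0.25, 0.28 and −0.05. Both have means of −0.01 over tumors that lie on opposite sides of 0, with limma adjusted p of 0.986 for Irf7 and 0.988 for Irf8. Stat2 and Irf9, which act together on the ISRE, had means of −0.02 and 0.06. Irf3, which starts type I interferon transcription, had −0.04, and Irf5, which acts in inflammatory signaling, had a mean of 0.11, with a ratio of 0.32 in 811a and of −0.01 and 0.02 in 812a and 815a. One of the windows of Irf1 (chr11:53769764-53770063, plus strand) holds a GAS beginning 90 bases and an NF-kB consensus beginning 13 bases before the start, both on the printed strand and in capitals, and no ISRE letters.

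Irf1: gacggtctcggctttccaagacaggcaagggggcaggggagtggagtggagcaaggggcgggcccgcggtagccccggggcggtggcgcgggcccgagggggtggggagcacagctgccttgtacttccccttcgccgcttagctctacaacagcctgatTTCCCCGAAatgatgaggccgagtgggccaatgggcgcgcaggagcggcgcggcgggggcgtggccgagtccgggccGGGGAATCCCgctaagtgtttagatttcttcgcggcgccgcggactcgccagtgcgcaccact

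The negative regulators lay near 0. Usp18, which removes Isg15 from proteins and blocks signaling at Ifnar2, had log2 ratios of −0.08, −0.22 and 0.13, and a mean of −0.06 (SE 0.08, limma adjusted p 0.918). Socs1, an inhibitor of the Jak kinases, had −0.05, 0.17 and 0.02. In neither gene did the 3 tumors lie on the same side of 0.

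Of the 6 sensors and effectors of foreign nucleic acid, Samhd1, which breaks down the nucleotides that viruses need, had the lowest ratio of all members. Its log2 ratios were −0.46 in 811a, −0.10 in 812a and −0.08 in 815a. All 3 were below 0 and 811a stood apart, as it did for Ifngr1 on the other side. The mean was −0.21 (SE 0.09, limma adjusted p 0.697), and its second probe gave −0.23, −0.21 and 0.02, with a mean of −0.14, so that neither the shared sign nor the distance of 811a held there. Without 811a the mean of the brighter probe was −0.089. Zbp1, a sensor of Z-form nucleic acid, and Ddx58, the RNA sensor RIG-I, each had probes on opposite sides of 0. The brightest probe of Zbp1 had ratios of 0.25, −0.09 and 0.28 with a mean of 0.15 (SE 0.09, limma adjusted p 0.793), and its other probe a mean of −0.02. The brightest probe of Ddx58 had 0.21, −0.02 and 0.15 with a mean of 0.11 (SE 0.07, limma adjusted p 0.821), and its other probe a mean of −0.05. Ifih1, the RNA sensor MDA5, was split in the same way, with means of 0.03 and −0.10. The RNA-binding regulator Dhx58 and the RNA-dependent kinase Eif2ak2 had means of −0.02 and 0.03.

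The 5 genes tested of the OAS family, which senses double-stranded RNA, were above 0 in mean, from 0.05 for Oas1a to 0.14 for Oasl1, with a median of 0.09; with each array centered on its median, Oas1a had −0.16. In 811a all 5 were above 0, in 815a 4, and in 812a 1. Oas1a had log2 ratios of 0.14, −0.21 and 0.22, a mean of 0.05 (SE 0.09, limma adjusted p 0.938) and a second probe with a mean of −0.10. For the OAS genes, then, the sign in 812a differed from that in the other tumors in 4 of 5 cases. The window of Oas1a (chr5:120907476-120907775, minus strand) holds an overlapping pair of ISRE matches on the reverse strand, beginning 20 and 14 bases before the start, and a GAS beginning 98 bases before it, all in capitals.

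Oas1a: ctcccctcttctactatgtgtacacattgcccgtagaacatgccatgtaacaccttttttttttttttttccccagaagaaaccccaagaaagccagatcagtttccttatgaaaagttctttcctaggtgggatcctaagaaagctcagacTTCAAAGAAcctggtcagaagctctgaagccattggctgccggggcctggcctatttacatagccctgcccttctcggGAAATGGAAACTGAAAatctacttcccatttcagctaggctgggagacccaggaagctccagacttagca

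Among 11 other antiviral effectors, the highest mean was 0.14 for Ifi35, a partner of Nmi, and the lowest −0.09 for Ifi44, with a median of 0.06. Isg15, the ubiquitin-like protein that Usp18 removes, had a mean of 0.06 with both of its probes. The genes of the Ifit proteins, which bind foreign RNA, had means of 0.12 for Ifit1, −0.02 for Ifit2 and 0.02 for Ifit3. Rsad2, the antiviral enzyme viperin, and its genomic neighbor Cmpk2, a nucleotide kinase, had 0.07 and 0.01, and Xaf1, a promoter of cell death, had 0.13. The arrays disagreed most for Bst2, the membrane protein tetherin that holds virus particles at the cell surface. Its log2 ratios were 0.31 in 811a, −0.27 in 812a and 0.16 in 815a, with a mean of 0.07 (SE 0.11, limma adjusted p 0.928). Ifi44 had −0.03, −0.28 and 0.03, a mean of −0.09 (SE 0.08, limma adjusted p 0.872), and Ifi27 had −0.15, −0.17 and 0.05, a mean of −0.09 (SE 0.08, limma adjusted p 0.863). None of these 3 genes had the same sign in all tumors. The window of Bst2 (chr8:71537423-71537722, minus strand) holds, as 1 run of capitals, an NF-kB consensus from 142 bases before the start, a GAS from 136 bases before it that overlaps it, and ISRE matches on the reverse strand from 130 and 124 bases before it.

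Bst2: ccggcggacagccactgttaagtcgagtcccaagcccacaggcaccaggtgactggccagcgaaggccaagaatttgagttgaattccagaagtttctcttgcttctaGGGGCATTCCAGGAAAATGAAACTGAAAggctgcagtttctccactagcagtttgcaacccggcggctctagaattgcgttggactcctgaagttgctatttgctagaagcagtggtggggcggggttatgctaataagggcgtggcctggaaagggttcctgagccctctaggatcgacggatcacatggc

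The TRIM and PARP ligase genes included the member with the highest mean. Parp14, a mono-ADP-ribosyltransferase, had log2 ratios of 0.74 in 811a, 0.25 in 812a and 0.27 in 815a. As for Ifngr1, all 3 were above 0 with 811a apart, and the mean was 0.42 (SE 0.10, limma adjusted p 0.379), the 49th highest of all genes tested. Its adjusted p was 0.0113 with the dye term and 0.000699 without 812a, in a range from 0.000699 to 1.00. Parp9, a related macrodomain protein, had 0.61, 0.01 and 0.26 with a mean of 0.29 (SE 0.11, limma adjusted p 0.617), and without 812a the adjusted p was 0.00196, in a range from 0.00196 to 1.00. Dtx3l, the ubiquitin ligase that binds Parp9, had 0.38, 0.06 and 0.17 with a mean of 0.20 (SE 0.08, limma adjusted p 0.665), and its second probe had a mean of 0.19. Without 811a the means were 0.26 for Parp14, 0.14 for Parp9 and 0.12 for Dtx3l, and with each array centered on its median they were 0.23, 0.11 and 0.049. In each of these 3 genes 811a had the highest ratio and the other tumors were also above 0, in 812a by only 0.01 for Parp9. The TRIM genes, which encode ubiquitin ligases, had lower means of 0.14 for Trim21, 0.04 for Trim30a and 0.02 for Trim25.

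The GTPase genes, whose products attack the vacuoles of intracellular microbes, had means of 0.12 for Gbp3, 0.11 for Gbp2, 0.06 for Igtp and 0.02 for Irgm1, whose second probe had a mean of −0.11. Iigp1 lay below 0, with log2 ratios of −0.34, −0.08 and −0.05 and a mean of −0.16 (SE 0.08, limma adjusted p 0.758), and its second probe had a mean of −0.10. By the brightest probe it was 1 of the 2 members below 0 in all 3 tumors, the other being Samhd1. Without 811a the mean of Iigp1 was −0.064, and with each array centered on its median it was −0.29.

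The wider pathway was read from lists of 119 further genes, of which 110 had a probe and 96 were tested. By limma 0 of the 96 passed the adjusted p. At an unadjusted p under 0.05, 14 were above 0 and 3 below, where 3.53% and 3.57% of all genes were. The dye term called 5 as raised and the rank product 2, where they called 0.547% and 0.170% of all genes as raised. Of the ligands, 15 of 19 had a probe and 9 were tested, with means between −0.06 for Ifna1 and 0.07 for Ifna11 and a median of −0.01. The probes of Ifnb1, Ifna4, Ifna7, Ifna13, Ifng and Ifne were not well above background by the filter. The 95% interval of each of the 9 ligands held 0, and at low levels the offset of the background correction compresses ratios. The other receptor, kinase and regulator genes (18 tested) had a median of 0.08. Of the kinases, Jak1 had a mean of 0.09, Jak2 0.17 and Tyk2 0.03. Nmi, an interferon-inducible adaptor, had ratios of 0.26, 0.20 and 0.35, a mean of 0.27 (SE 0.07, limma adjusted p 0.412), and Ptpn2, a phosphatase of the pathway, had a mean of 0.25 with all 3 tumors above 0.

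Genes of sensing upstream of interferon (14 tested) had a median of −0.0055. The highest was Traf3, an adaptor shared by RANK-type receptors and interferon induction, with log2 ratios of 0.43, 0.37 and 0.33 and a mean of 0.38 (SE 0.07, limma adjusted p 0.210). The 3 tumors lay close together, and with the dye term the adjusted p was 0.00411. Ikbke, a kinase that activates Irf3 and Irf7, and Cgas, the DNA sensor, had means of 0.23 and 0.21. Further interferon-stimulated genes (55 tested) had a median of 0.03. Cxcl10, a chemokine that attracts T cells, had ratios of 0.50, 0.59 and 0.41 and a mean of 0.50. Its only probe passed the filter through the RL cultures, with the control culture well above background on 2 of 3 arrays, so its ratios are a description and no test of it is given. The counts given above for the 96 were made over all genes tested and so include Cxcl10, and nothing is concluded from its part in them. Ifi47, a GTPase, had 0.37, 0.39 and 0.33, a mean of 0.37 (SE 0.07, limma adjusted p 0.210) and an adjusted p of 0.00397 with the dye term. In neither Ifi47 nor Traf3 did the tumor with RL in Cy5 have the lowest ratio. Ifi204, a DNA sensor, had a mean of 0.20, and the antiviral genes Ifitm1 and Trim14 had means of −0.27 and −0.25 with all 3 tumors below 0.

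For comparison, 10 genes that NF-kB switches on had a median of 0.52, and 0.93, 0.37 and 0.22 in 811a, 812a and 815a. This list, like the others, was chosen with earlier results of these data known. All 10 means were above 0, and 9 were above 0 in every tumor, where 14.2% of all genes were. By limma, 8 were above 0 at an unadjusted p under 0.05, where 3.53% of all genes were. Adjusted over all genes, limma called 0 of these 10. The dye term called 7 as raised and the rank product 4, where 0.547% and 0.170% of all genes were. The members' median was smaller in every tumor, and like that of the NF-kB genes it was highest in 811a. The NF-kB genes spread along both axes of the plot of the dye orders, while most members stayed near its center. The marker lists had medians of −0.03 for epithelial, −0.10 for myeloid, −0.05 for fibroblast, 0.0026 for pan-leukocyte and lymphoid and −0.0048 for endothelial genes, and limma called 0 genes of any of them. At an unadjusted p under 0.05, 2 myeloid markers and 1 fibroblast marker were below 0, and 0 markers were above 0. Myeloid markers had medians of −0.26, −0.11 and −0.0014 in 811a, 812a and 815a, and fibroblast markers −0.25, 0.13 and −0.05. Epithelial markers had medians of 0.16, −0.17 and −0.10, with 8, 2 and 2 of the 10 above 0. The part of these cell types in the members' ratios was not tested. Of 10 reference genes, with a median of −0.04, 5 were below 0 in 811a and 815a and above 0 in 812a, among them Actb with −0.65, −0.70 and 0.57.

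**Figure D2:**
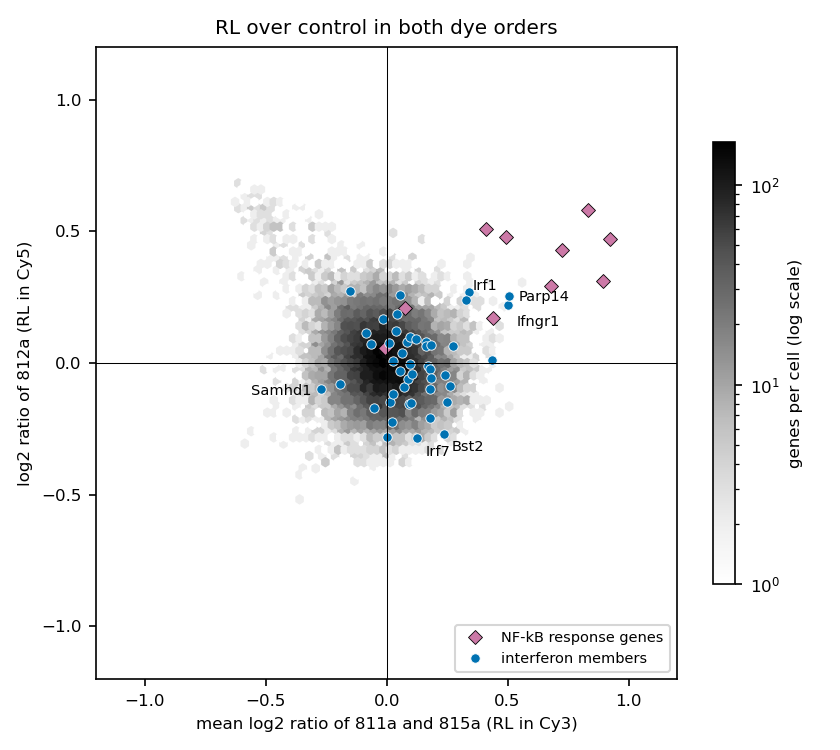
Log2 ratio of RL over control in 812a, with RL in Cy5 (vertical axis), against the mean of 811a and 815a, with RL in Cy3 (horizontal axis); gray cells count all genes on a log scale, circles are the 46 members and diamonds the 10 NF-kB response genes. Of the members, 13 are above 0 in all 3 tumors, among them Parp14, Ifngr1 and Irf1, and 16 are above 0 in 811a and 815a only. With each array centered on its median in place of loess, 0 members are above 0 in all tumors.

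**Figure D3:**
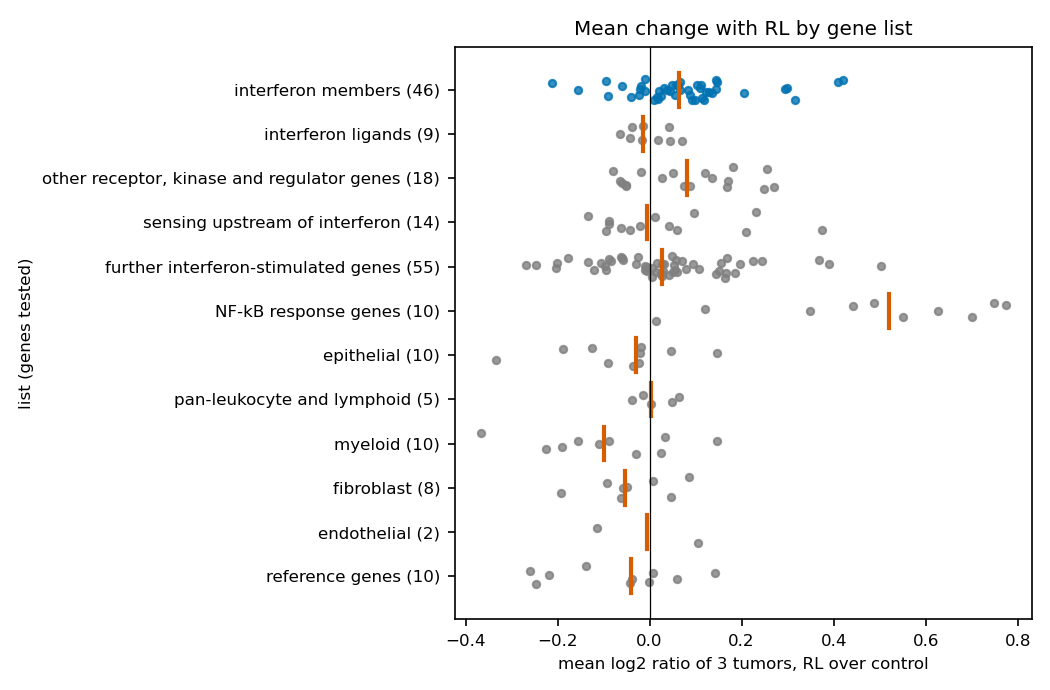
Mean log2 ratio of RL over control of each gene tested (points) in the members, the pathway lists, the NF-kB response genes, the marker lists and the reference genes, with the number of genes tested; orange bars are medians. The median is 0.52 for NF-kB response genes and between −0.10 and 0.08 for every other list drawn.

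The levels of most members differed more between tumors than between the cultures of a tumor. This pattern was chosen after its values were seen, and is given as a description with no test. A level is the log2 normalized intensity of a gene's brightest probe, and levels are compared between cultures for the same probe or the same set of probes. Oas2 had levels of 12.27 in the control culture of 811a, 9.93 in that of 812a and 13.19 in that of 815a, and of 12.50, 9.83 and 13.33 in the cultures with RL. As the mean of both cultures, 815a was 10.4-fold above 812a, with 811a between them. Isg15 had 14.31, 12.76 and 15.74 in the control cultures and 14.44, 12.75 and 15.80 with RL, and 815a was 8.08-fold above 812a. The other genes in which 815a was more than 6-fold above 812a were Oasl2 and Usp18 (both 8.63-fold), Irf7 (7.46-fold), Bst2 (6.93-fold), Ifit1 (6.78-fold), Gbp3 (6.59-fold), Ifi44 (6.55-fold), Oasl1 (6.41-fold) and Oas3 (6.04-fold). In all of them the RL culture of 812a was below the control culture of both other tumors. Oas3 read at a low level in 812a (6.28), where the offset compresses differences, so its fold is not exact.

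The level was lowest in 812a and highest in 815a for 34 of the 46 members, an order that 11.4% of all genes had. For 28 of the 34, 815a was over 2-fold above 812a, where 1.40% of all genes had the order with this distance. In 31 members the order held both among the control cultures and among the RL cultures, as it did in 5.55% of all genes, and 812a carries the other dye in each set of 3. The median difference of 815a over 812a was 1.41 on the log2 scale, and −0.03 over all genes tested. The range of a gene's levels over the tumors was larger than its largest absolute RL ratio in any tumor for 41 of 46 members, as it was for 69.8% of all genes. The median range was 1.45 for the members and 0.27 for all genes, and the median of the members' largest absolute ratios was 0.22. The members' further probes gave the same answer as the brightest probe for 11 of 12 probes. The alternatives for this pattern, no background correction, a median per array in place of Aquantile, and the scanner's processed signals with a median per array, were also chosen after its values were seen. They gave 34, 35 and 35 members in this order and median differences of 1.45, 1.42 and 1.54. Each tumor was read on 1 array, so a difference between tumors cannot be told apart from one between arrays.

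By role, the order held for all 5 OAS genes (median difference 2.68), all 5 GTPases (2.19), all 6 ligase genes (0.90), 5 of 6 sensors (1.48) and 8 of 11 other effectors (1.96). It held for 4 of 7 transcription factors (0.75), for Usp18 and not Socs1, and for 0 of 4 receptors (0.03). The 12 members without it were the receptors Ifnar1, Ifnar2, Ifngr1 and Ifngr2, the factors Irf1, Irf3 and Irf5, and Socs1, Samhd1, Ifit2, Rsad2 and Ifi27. Of these, Rsad2 was also highest in 815a (8.92, with 7.16 in 811a and 7.52 in 812a), whereas Ifi27 was highest in 811a (15.71, with 14.78 in 812a and 14.46 in 815a). The genes with the highest RL ratios, Ifngr1 and Parp14, differed in this respect, with levels of 11.85, 12.16 and 12.00 for Ifngr1 and of 12.13, 11.61 and 13.33 for Parp14 in 811a, 812a and 815a. The windows of Oas1a and Bst2 hold the ISRE and those of Ifngr2 and Irf1 do not, which describes these 4 windows and no more. Other members go the other way. Irf7, Ifi44, Oasl1 and Oasl2 had the order with no ISRE letters in their windows, and Socs1 and Rsad2 hold the ISRE without the order.

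Outside the members, the order held for 31 of 55 further interferon-stimulated genes, 22 of them over 2-fold, with a median difference of 0.69. It held for 3 of 9 ligands, 4 of 18 other receptor, kinase and regulator genes and 4 of 14 genes of upstream sensing, with median differences of 0.02, −0.05 and 0.05. It held for 1 of 10 NF-kB response genes and 0 of 10 reference genes. The ligand probes read at low levels, where the offset compresses differences, so little can be read from their order. Fibroblast markers moved with it: 5 of 8 (Col1a1, Col1a2, Col3a1, Dcn and Thy1) had the order, all over 2-fold, and the median difference was 1.70. The summed level of the 8 fibroblast markers, as log2, was 13.23, 12.12 and 14.18 in the control cultures of 811a, 812a and 815a and 12.96, 12.22 and 14.14 with RL, with Col1a1 the brightest. The order held for 3 of 10 epithelial markers, 4 of 10 myeloid markers, 1 of 5 pan-leukocyte and lymphoid markers and 0 of 2 endothelial markers. The level was lowest in 812a for 8 of the 10 myeloid and 6 of the 10 epithelial markers, and the median difference of 815a over 812a was 0.19 for myeloid and 0.45 for epithelial markers. For the same tumors in turn, the summed level of the epithelial markers was 18.46, 18.12 and 18.94 in the control cultures. With RL it was 18.23, 18.22 and 18.54, and Krt18 was the brightest. That of the myeloid markers was 15.14, 14.65 and 14.38 in the control cultures and 15.28, 14.50 and 14.36 with RL, with Cd14 the brightest. Each of these sums, that of the fibroblast markers included, follows its brightest probe. Which probe reads brightest depends on the probe as well as on the RNA. The part of fibroblast, epithelial or myeloid RNA in the difference between tumors was not tested.

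**Figure D4:**
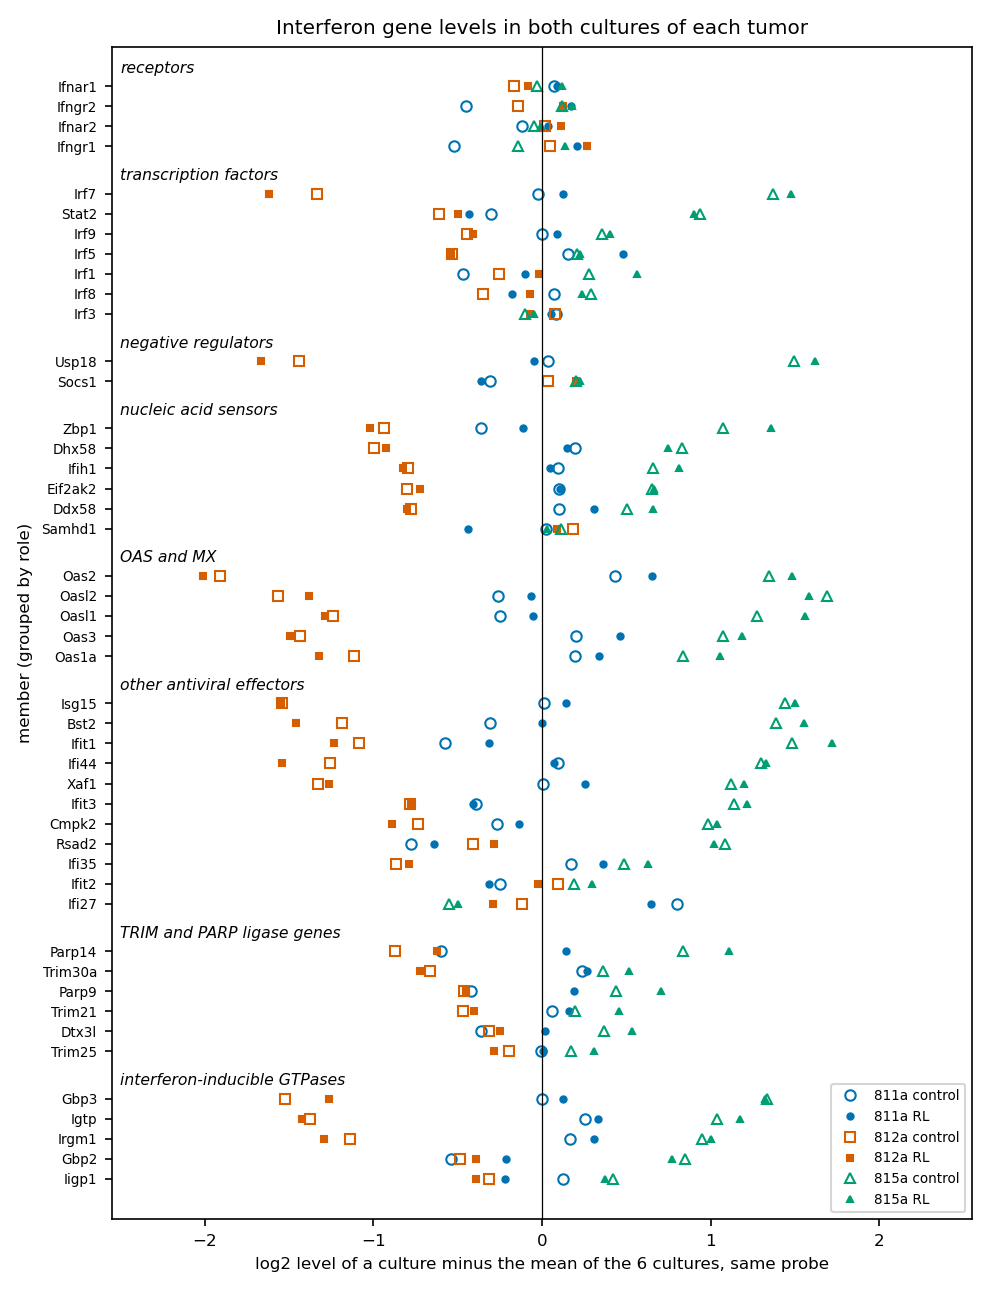
Log2 level of each member in every culture minus its mean over the 6 cultures, same probe (horizontal axis), by role (vertical axis); open symbols are control cultures, filled symbols cultures with RL, and shapes the 3 tumors. For 34 of 46 members, tumor 815a is highest and 812a lowest as the mean of both cultures, and the cultures of a tumor lie close together.

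**Figure D5:**
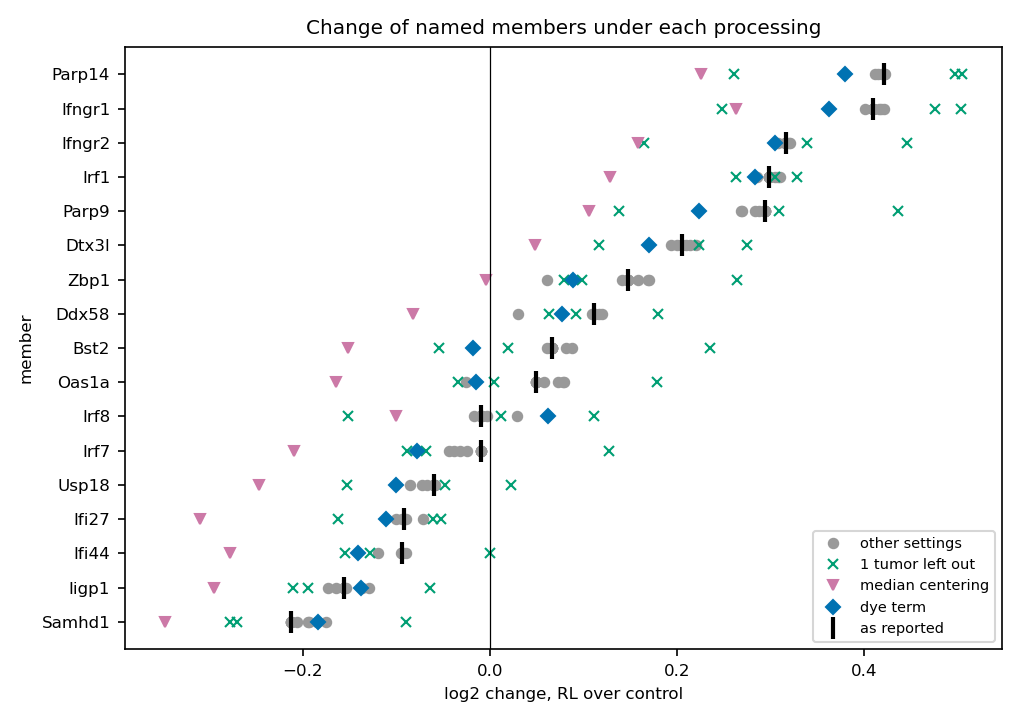
Log2 ratio of RL over control of 17 members (vertical axis) as reported (black ticks) and under each other processing (points). Parp14, Ifngr1, Ifngr2, Irf1, Parp9 and Dtx3l stay above 0 in every setting drawn and Samhd1, Iigp1 and Ifi27 below 0, while Bst2, Oas1a, Irf8, Irf7, Zbp1, Ddx58, Usp18 and Ifi44 cross 0 in at least 1.

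Over 15 alternatives, 9 of the 17 members with full statistics kept their sign in each, as the plot of the settings shows. Some alternatives, such as no Aquantile, keeping outlier spots and no pairing by tumor, left the means of these members unchanged, so no sign could change there. Without 812a, 29 of 46 members were above 0 in both remaining tumors, without 811a 15 and without 815a 17, where 13 were above 0 in all 3. Below 0 in both were 5, 2 and 8 in the same order, where 2 were below 0 in all 3. A count over fewer tumors is met more easily by construction. The range of Ifngr1 over the alternatives was 0.25 to 0.50, that of Parp14 0.23 to 0.50, and that of Irf1 0.13 to 0.33. For Samhd1 it was −0.35 to −0.09. The lowest value of Irf1, Parp14 and Samhd1 was that with each array centered on its median, which moved the median of all genes to −0.11.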

How the data were processed

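RNA of 3 pairs of mmtv-Pymt tumor cultures, RL and control, was measured on 3 Agilent arrays with both cultures of a tumor on 1 array. The authors deposited, per the file headers, the median spot intensity and local background intensity of each dye from Agilent Feature Extraction 10.7.3.1, and that software's processed signal intensity. The deposited value table holds log2 ratios; against the scanner values the authors' columns were Cy5 over Cy3 (r of 0.884, 0.874 and 0.881 per spot for 811a, 812a and 815a) with medians of 0.00329, 0.000361 and 0.000888, so they are centered. Their slope against the values used here was 1.40, 1.59 and 1.49 over all spots and 1.15, 1.17 and 1.15 over the genes tested, for a reason not known. They served as an alternative only.

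In R 4.3.3 with limma 3.58.1, intensities were corrected by normexp (offset 50, which compresses ratios of dim probes), normalized by intensity loess, spatial loess (span 0.1) and Aquantile, and outlier spots were dropped. RefSeq accessions of GRCm38.p6 named 28026 of 55681 probes. A probe was kept if every control channel or every RL channel was well above background, and a gene was read from its brightest kept probe. The array was designed on another build, so no coordinates come from it. Ratios, which pair cultures by tumor as the labels do, were fitted with lmFit, moderated with eBayes (residual degrees of freedom 2, prior 6.67) and adjusted by Benjamini-Hochberg over 21743 genes and transcripts. The test was checked on simulated data that held no dye effect.

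The members and lists were chosen with earlier results of these data known. Full statistics went to members with an unadjusted limma p under 0.05, with the 5 highest or 5 lowest means, or on which arrays or probes disagreed most. Of the wider pathway, at most 10 genes with an unadjusted p under 0.05 and the same sign in all tumors were named, with Jak1, Jak2, Tyk2 and Cxcl10. Alternatives were no background correction, processed signals, no spatial loess, median centering, no Aquantile, no filter on dim probes, a filter in all 6 channels, keeping outlier spots, averaging a gene's probes, the authors' ratios, a dye term, an intensity trend, no pairing by tumor, rank product, and each tumor left out. For the levels of the tumors, no background correction and medians per array, with either signal, were added after the data were seen.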

Additional observations from a re-analysis of the deposited data

How the results depend on the processing

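Of 255 values of the 17 named members over 15 alternatives, 231 kept their direction and their side of the threshold, 8 passed the threshold (with the dye term or without 812a) and 16 changed sign. The means of these members were the same as reported without Aquantile, without pairing, with outlier spots kept and with either change of the filter. In those settings no sign could change, so the count of values that kept their direction includes them. The members lowered were 0 under every alternative run, and the members raised were 0 except as given here; the cause was not tested in any case. Median centering gave a median of the members of −0.12 and 0 members above 0 in all tumors, with changed signs for Bst2 (−0.15), Oas1a (−0.16), Ddx58 (−0.082) and Zbp1 (−0.0038). The median of all genes was then −0.11, and the members' median relative to it −0.0083. The dye term gave 3 members raised, 119 genes raised and 155 lowered, and changed signs for Bst2 (−0.018), Oas1a (−0.015) and Irf8 (0.062). The scanner's processed signals gave Irf8 0.029, and the mean over probes gave Oas1a −0.026. Leaving out 1 tumor gave 0 to 5 members raised, 0 to 552 genes raised and 1 to 892 lowered, 15 to 29 members above 0 in all tumors and 2 to 8 below. The signs that changed without 1 tumor lay in ranges of −0.15 to 0.11 for Irf8 (0.012 without 815a), −0.054 to 0.24 for Bst2, −0.034 to 0.18 for Oas1a, −0.088 to 0.13 for Irf7, −0.15 to 0.022 for Usp18 and −0.15 to 0.00060 for Ifi44.

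Genes raised and lowered were 6 and 12 with no background correction, 9 and 21 with an intensity trend, and 37 and 51 by rank product. They were 0 and 3 both with no filter on dim probes and with the filter in all 6 channels. They were 0 and 0 in 3 cases: processed signals, no pairing by tumor, and median centering. The mean over probes lowered 3, and the authors' ratios raised 2. Signal over background limits the dim probes, whose ratios the offset compresses.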
